A study of Caenorhabditis elegans with 10 samples.

Results

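The str, srd and srj genes of Caenorhabditis elegans encode chemoreceptors, membrane proteins of the G protein-coupled receptor type that are expressed mainly in chemosensory neurons. The families belong to the Str superfamily, together with srh and sri, and many of their members stand side by side in arrays, most of them on chromosome V. HPL-1 and HPL-2 are the worm's members of the heterochromatin protein 1 family, chromatin proteins that recognise methylated lysine 9 of histone H3. The measurements below place HPL-1 and HPL-2 on these receptor genes in cells of the intestine and of the hypodermis (the worm's epidermis), not in neurons.

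The 299 genes described here are every protein-coding gene of the WBcel235 annotation whose symbol is str, srd or srj followed by a number, out of 19971 protein-coding genes on the 6 nuclear chromosomes. They comprise 193 str, 67 srd and 39 srj genes. Bound here means that at least 1 bp of the gene body lay under a peak. Within these families the genes were taken by symbol alone, with no measured value. The families themselves were chosen with earlier results of these data known.

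The peaks come from DamID-seq on L4 larvae grown for 48 h at 20 °C. In this assay a protein fused to the Dam methyltransferase marks adenines in GATC sites near its places on the chromatin, and a GFP-Dam fusion in the same tissue gives the background. The fusions were HPL-1::Dam in the intestine of strain MRS579, HPL-2::Dam in the intestine of strain MRS580 and HPL-2::Dam in the hypodermis of strain MRS578, with GFP::Dam controls in the intestine (BN1051) and the hypodermis (BN561). Each of these 5 groups had 2 libraries, and the sources used here do not give the promoters that drive the fusions. The authors averaged the libraries before calling peaks, so each HPL group is 1 peak list of 1346 (HPL-1 intestine), 1665 (HPL-2 intestine) and 1572 peaks (HPL-2 hypodermis), with no error between replicates and no test over samples. Both intestine lists were called against the same GFP-Dam libraries. Sequencing depth is unknown from these lists, which hold no expression values either, so the tissue labels were not checked against marker genes.

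Few of the receptor genes lay under peaks, and the HPL-2 intestine list held the fewest. HPL-1 in the intestine lay over 10 of 299 (3.34%, exact Clopper-Pearson 95% interval 1.62% to 6.06%), where 4.84% of all protein-coding genes were bound. HPL-2 in the intestine lay over 3 of 299 (1.00%, 0.207% to 2.90%), against 6.11% of all protein-coding genes. HPL-2 in the hypodermis lay over 13 of 299 (4.35%, 2.34% to 7.32%), against 5.92%. The intervals cover counting error only, and neighbouring genes are not independent. The all-gene share lay above the interval of the receptor genes in the HPL-2 intestine list and inside it in the other lists. With an FDR of 0.01 or below required of a peak, the counts were 4, 0 and 7 (1.34%, 0% and 2.34%). The shares of all protein-coding genes fell too, to 2.75%, 4.29% and 3.785%. With the gene's midpoint required inside a peak, the HPL-1 share of receptor genes was 1.67% and thus above the 1.24% of all genes, the reverse of the order given above.

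Receptor genes are shorter than most, with a median body of 1622 bp against 2006 bp for all protein-coding genes, and a short gene offers a peak less sequence. The share of gene-body sequence under peaks takes this into account. In the HPL-1 intestine list 1.06% of the receptor gene sequence was covered, beside 0.994% of all protein-coding gene sequence. In the HPL-2 hypodermis list it was 1.78% beside 1.89%. In the HPL-2 intestine list it was 0.468% beside 1.69%, a ratio of 0.276. Over the whole genome, the shares of sequence in the HPL-1 and hypodermis lists were close to those of all genes, while that of HPL-2 in the intestine was lower. On chromosome V alone, the ratios of receptor genes to all genes were 0.883, 0.384 and 0.716 in the order HPL-1, intestinal HPL-2 and hypodermal HPL-2. In the chromosome arms, defined below, the ratios were 0.786, 0.254 and 0.872 in the same order. In the arms of chromosome V they were 0.747, 0.354 and 0.666. In the chromosome centres the HPL-1 ratio was 2.28, over 3 bound genes whose peaks all had an FDR above 0.01, and both HPL-2 ratios were 0. Whether gene length accounts for the lower counts of bound genes was not tested.

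**Figure D1:**
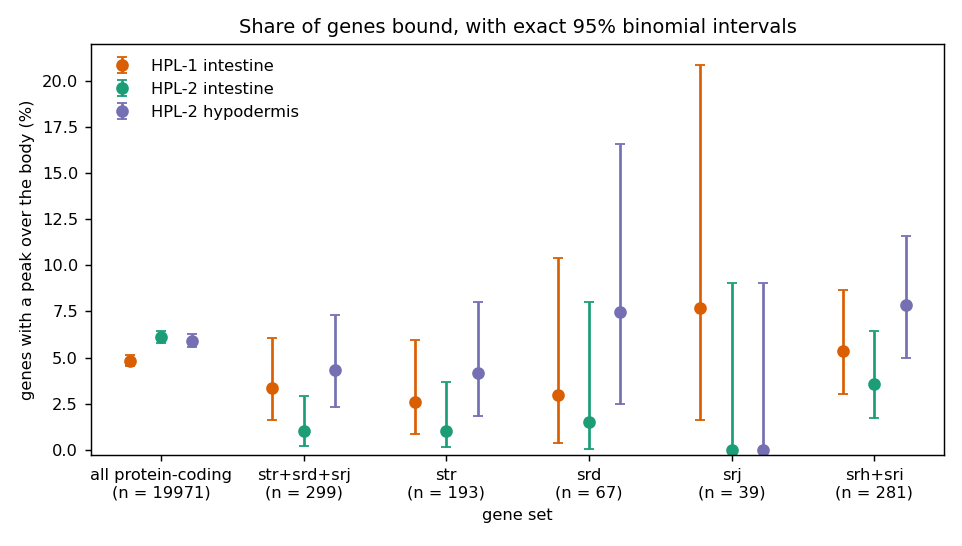
Share of genes with a peak over the body (vertical axis, percent) for all protein-coding genes, the 299 receptor genes, their families and the related srh and sri genes (horizontal axis). Points are shares in 1 peak list each and bars are exact 95% binomial intervals; the HPL-2 intestine point of the 299 genes is at 1.00%, and both HPL-2 points of srj are at 0.

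Bound genes came from all 3 families, with too few in each to set the families apart. Of 193 str genes 5 were bound by HPL-1 in the intestine, 2 by HPL-2 in the intestine and 8 by HPL-2 in the hypodermis. These are 2.59%, 1.04% and 4.145%, beside 4.84%, 6.11% and 5.92% of all protein-coding genes. Of 67 srd genes the numbers were 2, 1 and 5 (2.985%, 1.49% and 7.46%). The srd share in the hypodermis, with an interval of 2.47% to 16.6%, stands beside 5.92% of all genes. Of 39 srj genes 3 were bound by HPL-1 (7.69%, 1.62% to 20.9%), beside 4.84% of all genes. This count fell to 0 with an FDR of 0.01 or below, and to 0 with the gene midpoint required inside a peak. HPL-2 lay over 0 srj genes in either tissue. A count of 0 allows a share of up to 7.69% when the limit is set at 3 genes of 39 (the exact interval reaches 9.025%). The family intervals overlap one another in every list, and the families were not compared by a test. The srh and sri genes of the same superfamily had 15, 10 and 22 of 281 bound in the order HPL-1, intestinal HPL-2 and hypodermal HPL-2 (5.34%, 3.56% and 7.83%). Over 19 other chemoreceptor families, srh and sri included, the shares were 2.48%, 1.59% and 3.37% of 1009 genes, so HPL-2 in the intestine had the lowest share there too.

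In all, 23 receptor genes (7.69%, 4.94% to 11.3%) were bound in at least 1 list, beside 2479 of all protein-coding genes (12.4%). Of the 23, 20 were in a single list, 3 in 2 lists and 0 in all 3. The HPL-2 intestine list held only 3 of them. This split was not made for all protein-coding genes, so it does not show a trait of the receptor genes. Every one is described below. Scores are the authors' own value for each peak, on a scale the lists do not state, so they are compared only within a list. The FDR is likewise the authors'. The gene table used here holds neither strand nor exons, and a peak is therefore placed by distance along the gene body, not as exonic, intronic or upstream.

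**Figure D2:**
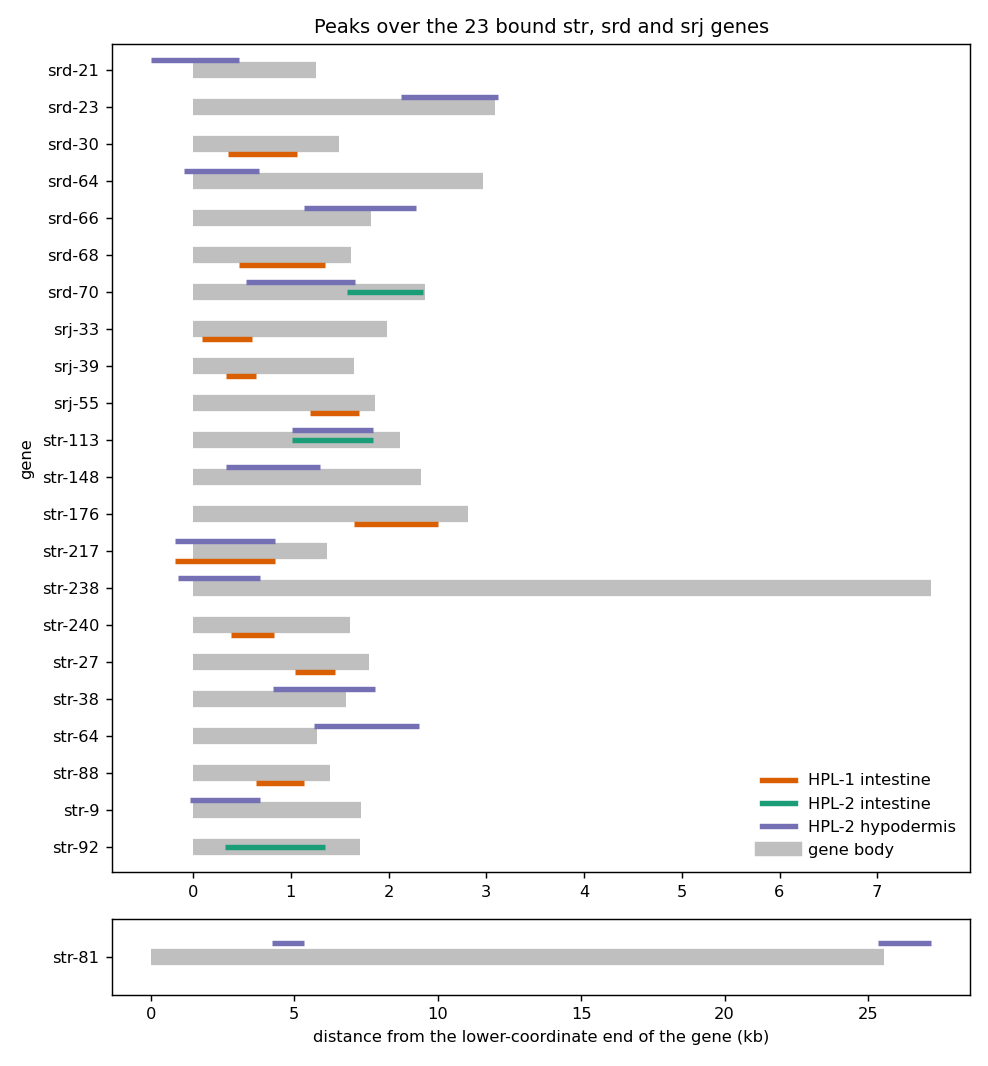
Peaks over the 23 bound receptor genes, drawn to scale as distance from the lower-coordinate end of each gene (horizontal axis, kb), with str-81 on an axis of its own. Grey bars are gene bodies and coloured bars are peaks of the 3 lists; the peak of str-64 touches its last 32 bp, and the peaks of str-217 and str-113 have the same ends in both lists that hold them.

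The receptor gene with the largest part of its body under a peak was str-217 (V, 16998933 to 17000304). This gene encodes a receptor of the ADL neurons that is needed for the response to the insect repellent DEET. HPL-1 (intestine) and HPL-2 (hypodermis) had a peak with the same ends there (V, 16998752 to 16999775), which covered 61.4% of the gene and also touched the pseudogene Y102A5C.38. The peak scored 1.16 in the HPL-1 intestine list, rank 45 of 1346 (FDR 0.000351), and 1.57 in the hypodermis list, rank 907 of 1572 (FDR 0.00246). The HPL-2 intestine list had its nearest peak 10.1 kb away. These 2 lists share no control library. Of the 376 hypodermis peaks that overlapped an HPL-1 peak anywhere in the genome, 103 (27.4%) had the same ends, which DamID sets at GATC sites.

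Another pair of genes was bound by HPL-2 in both tissues. Over str-113 (V, 3664871 to 3666987) the peaks of both tissues again had the same ends (V, 3665886 to 3666716). They lay wholly within the gene, scoring 0.69 in the intestine (rank 1440 of 1665, FDR 0.022) and 1.58 in the hypodermis (rank 892 of 1572, FDR 0.0236). Over srd-70 (V, 20454111 to 20456487) the peaks were different ones that shared 80 bp. The hypodermis peak scored 1.19 (rank 1556 of 1572, FDR 0.0352) and the intestine peak, towards the higher-coordinate end, scored 1.01 (rank 717 of 1665, FDR 0.022). These 2 genes were 15.4% of the 13 bound in the hypodermis and 66.7% of the 3 bound in the intestine. For all protein-coding genes, 435 were in both HPL-2 lists, 36.8% of the hypodermis and 35.6% of the intestine genes. HPL-1 intestine and HPL-2 hypodermis shared only str-217, 10.0% of the HPL-1 and 7.69% of the hypodermis receptor genes. For all genes these shares were 31.7% and 25.9%, with 306 genes in both lists.

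The third gene of the HPL-2 intestine list was str-92 (V, 17674946 to 17676653). Its peak lay inside the gene, covered 59.5% of it and scored 0.72 (rank 1367 of 1665, FDR 0.0362). The nearest hypodermis peak was 5.75 kb away and the nearest HPL-1 peak 27.7 kb away. All 3 receptor genes of this list had an FDR above 0.01, whereas 65.05% of the peaks of the list had an FDR of 0.01 or below. At that stricter limit 0 of 299 receptor genes were bound by HPL-2 in the intestine, which allows a share of up to 1.00% (3 genes of 299), and 4.29% of all protein-coding genes were.

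HPL-1 in the intestine had 9 receptor genes besides str-217, and at each of them the peak lay wholly inside the gene body. Among the str genes, str-240 (V, 1520343 to 1521945) had a peak scoring 0.74 (FDR 0.0066) and str-27 (V, 15734023 to 15735820) one of 0.66 (FDR 0.0066). The peak of str-176 (IV, 8460999 to 8463816) scored 0.63 (FDR 0.0367) and that of str-88 (V, 15382439 to 15383839) 0.61 (FDR 0.0129). Among the srd genes, srd-68 (V, 16901215 to 16902826) had a peak of 880 bp that covered 54.6% of the gene and scored 0.69 (FDR 0.0013). The peak of srd-30 (V, 7629804 to 7631298) scored 0.59 (FDR 0.0367). The srj genes were srj-33 (V, 9935548 to 9937535, score 0.8, FDR 0.0213), srj-39 (V, 4104598 to 4106244, score 0.54, FDR 0.0213) and srj-55 (V, 2856082 to 2857942, score 0.54, FDR 0.0367). Their peaks were the 314 bp one of srj-39, the 504 bp one of srj-33 and the 506 bp one of srj-55. No receptor gene of this group lay under a peak of another list. The nearest HPL-2 intestine peak was 0.524 kb away for str-27 and between 8.81 kb (srj-39) and 114.4 kb (srd-30) for the other 8. The nearest hypodermis peak was between 1.42 kb (str-27) and 781.7 kb (srd-30) away.

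The HPL-2 hypodermis list held 10 receptor genes that were in no other list. The srd genes among them were srd-64 (III, 1692141 to 1695106, score 1.73, FDR 0.00804), srd-66 (III, 1980823 to 1982647, score 1.73, FDR 0.000579), srd-23 (IV, 15179915 to 15182999, score 1.28, FDR 0.00466) and srd-21 (V, 16629900 to 16631155, score 1.46, FDR 0.0236). Each of these 4 peaks ran over an end of its gene. The peak of srd-23 also covered 4 genes for piRNAs, the small RNAs of the germline that are encoded in large numbers on chromosome IV, and the peak of srd-21 touched the neighbouring gene W06G6.2.

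The str genes of the hypodermis list alone were str-9 (V, 15758749 to 15760465, score 1.85, FDR 0.00804), str-38 (V, 15730744 to 15732309, score 1.46, FDR 0.0352), str-238 (V, 765032 to 772585, score 1.36, FDR 0.0352), str-148 (II, 1045992 to 1048319, score 1.17, FDR 0.0352), str-81 and str-64. The annotated body of str-81 (V, 19225521 to 19251083) spans 25563 bp, the longest of the 299 genes, and holds other genes. One of its peaks (score 1.42, FDR 0.000246) also overlapped sqst-3, and the other (score 1.44, FDR 0.0352) shared 209 bp with the end of str-81 and reached F21D9.11 and the pseudogene F21D9.5. The peak assigned to str-64 (V, 3283257 to 3284529) had the highest score of any receptor gene in the hypodermis list, 2.83, at rank 25 of 1572 (FDR 1.93e-05). Only 32 of its 1068 bp (3.00%) lay on str-64, and the peak also overlapped the neighbouring gene F35F10.5. With an overlap of at least 100 bp required, str-64 was no longer bound and the hypodermis count was 12 (4.01%, beside 5.71% of all genes).

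Peaks on receptor genes did not stand high in their lists as a group. The median score was 0.645 over the 10 HPL-1 peaks, beside 0.66 for all peaks of the list. It was 0.72 over the 3 HPL-2 intestine peaks beside 0.95, and 1.46 over the 14 hypodermis peaks beside 1.65. Above the list's median were 4 of 10, 1 of 3 and 4 of 14 peaks. The 10% of highest scoring peaks of each list included 1 HPL-1 peak, over str-217, 0 HPL-2 intestine peaks and 1 hypodermis peak, the one that reaches str-64. An FDR of 0.01 or below was met by 4 of 10 HPL-1 peaks, beside 53.7% of the list, and by 7 of 14 hypodermis peaks, beside 59.5% of the list.

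**Figure D3:**
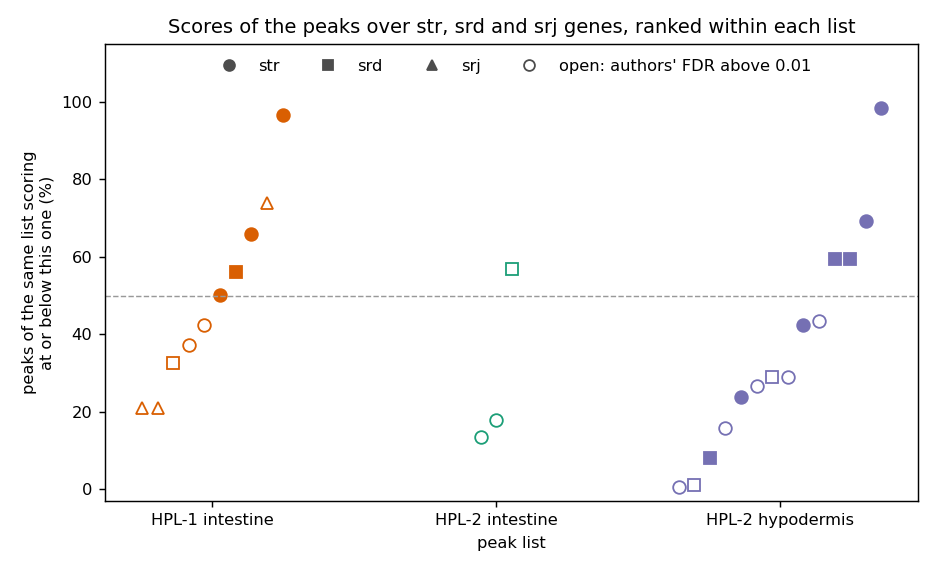
Peaks over receptor genes, placed by the percentage of peaks in the same list that score at or below them (vertical axis), for each list (horizontal axis). Symbols give the family, open symbols an FDR above 0.01 and the dashed line 50%; str-217 stands at 96.7% in HPL-1 intestine and the peak reaching str-64 at 98.5% in HPL-2 hypodermis.

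The median peak on a receptor gene was farther from the next peak than the median peak of its list, over few peaks and wide ranges. The distance from such a peak to the next peak of the same list had a median of 52.6 kb for HPL-1, where the list as a whole had 15.02 kb, and ran from 3.20 to 206.6 kb. It was 16.7 kb (14.1 to 26.7 kb) against 7.68 kb for HPL-2 in the intestine and 10.9 kb (1.14 to 51.3 kb) against 6.83 kb in the hypodermis. A protein-coding gene directly next to the receptor gene was bound in the same list for 2 of 10 HPL-1, 0 of 3 HPL-2 intestine and 5 of 13 hypodermis genes. Of all bound genes, 27.9%, 40.5% and 45.4% had such a neighbour, and with so few receptor genes no difference from these shares is shown.

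The counts were also taken by chromosome, beside all protein-coding genes of the same chromosome. Whether position on the chromosomes accounts for them was not tested. Chromosome V held 224 of the 299 receptor genes (156 str, 31 srd and 37 srj), beside 4995 of the 19971 protein-coding genes. Of the 224 receptor genes, 9, 3 and 9 were bound in the order HPL-1, intestinal HPL-2 and hypodermal HPL-2. These are 4.02%, 1.34% and 4.02% of the genes, beside 5.47%, 4.72% and 6.45% of all protein-coding genes of that chromosome. Chromosome IV held 37, of which str-176 was bound by HPL-1 and srd-23 by HPL-2 in the hypodermis (each 2.703%, beside 3.44% and 4.21% of all genes of that chromosome in those lists). In the hypodermis list 2 of 8 were bound on chromosome III, srd-64 and srd-66, and 1 of 9 on chromosome II, str-148, where 6.51% and 6.70% of all genes were. The 19 receptor genes of the X chromosome and the 2 of chromosome I were bound in no list. On the X chromosome 3.92%, 4.62% and 2.82% of all genes were bound, and on chromosome I 6.12%, 8.55% and 8.41%. At those shares 19 and 2 genes are too few for a lack of peaks to be detectable.

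Most receptor genes, 223 of 299, had their midpoint in a chromosome arm, taken here as everything outside the central 33.3% of a chromosome's length. These are 74.6% of the receptor genes, and 62.2% of all protein-coding genes lay in the arms too. In the arms HPL-2 lay over 3 of 223 in the intestine (1.35%, beside 8.71% of all genes there) and 13 of 223 in the hypodermis (5.83%, beside 8.36%), and HPL-1 over 7 (3.14%, beside 5.56%). In the centres 3 of 76 receptor genes were bound by HPL-1, namely srd-30, srj-33 and str-176. These are 3.95%, beside 3.65% of all genes there, and HPL-1 peaks covered 1.70% of receptor gene sequence in the centres beside 0.746% of all gene sequence, an order opposite to that in the arms (0.883% beside 1.12%). HPL-2 lay over 0 of the 76 in either tissue. A count of 0 of 76 allows a share of up to 3.95% (3 genes of 76), and 1.84% and 1.896% of all genes in the centres were bound in the HPL-2 intestine and hypodermis lists, so an absence of HPL-2 there was not detectable at these numbers.

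Peaks covered a smaller share of the arrays of receptor genes than of the genome. Runs of 3 or more of the 299 genes with gaps of at most 20 kb formed 30 clusters of 3 to 16 genes, 24 of them on chromosome V, with 154 genes in 761.4 kb. In 24 of the 30 clusters no list had a peak anywhere between the first and the last gene, and these held 118 receptor genes. Most clusters are short, with a median of 4 receptor genes. Runs of other genes of like length were not counted, so this number has no genome value beside it. Peaks covered 0.272% of the cluster sequence in the HPL-1 list, beside 0.952% of the genome and 1.43% of chromosome V. They covered 0.277% in HPL-2 intestine (genome 1.35%, chromosome V 1.38%) and 0.341% in HPL-2 hypodermis (1.74% and 2.24%). The cluster shares rest on only 4, 3 and 3 peaks in the order HPL-1, intestinal HPL-2 and hypodermal HPL-2. The cluster shares moved by over 1.5 times with the gap allowed: they were 0.412%, 0.418% and 0.515% with gaps of at most 10 kb, and 0.779%, 0.564% and 1.11% with 50 kb, each still below the genome's share. Of the 154 clustered genes 8 were bound in any list (5.20%), and of the 145 others 15 (10.3%), beside 12.4% of all protein-coding genes. The difference between clustered and other receptor genes was not tested. The longest cluster, 16 str genes on chromosome IV (4861773 to 4963147) with 7 other protein-coding genes between them, held no peak. Nor did the clusters of 11 str genes around str-138 on chromosome V (8058659 to 8107022) and of 7 and 5 srd genes on the X chromosome.

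One cluster held more than 1 bound gene. It runs over 49.7 kb of chromosome V (15710787 to 15760465) from str-101 to str-9 and holds 10 str genes and 10 other protein-coding genes. HPL-2 in the hypodermis lay over str-38 and, at the far end, str-9. HPL-1 in the intestine lay over str-27, the next receptor gene after str-38. Between them an HPL-2 intestine peak (15732602 to 15733499, score 0.95, FDR 2.32e-06) lay over T23D5.3 and over no receptor gene, starting at the base where the hypodermis peak of str-38 ended. From 15731560 to 15735479 the peaks of the 3 lists thus followed one another, with that base as their only overlap. The other bound genes in clusters were str-238, str-240, srj-55, srd-30 and str-92, each alone in its cluster.

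**Figure D4:**
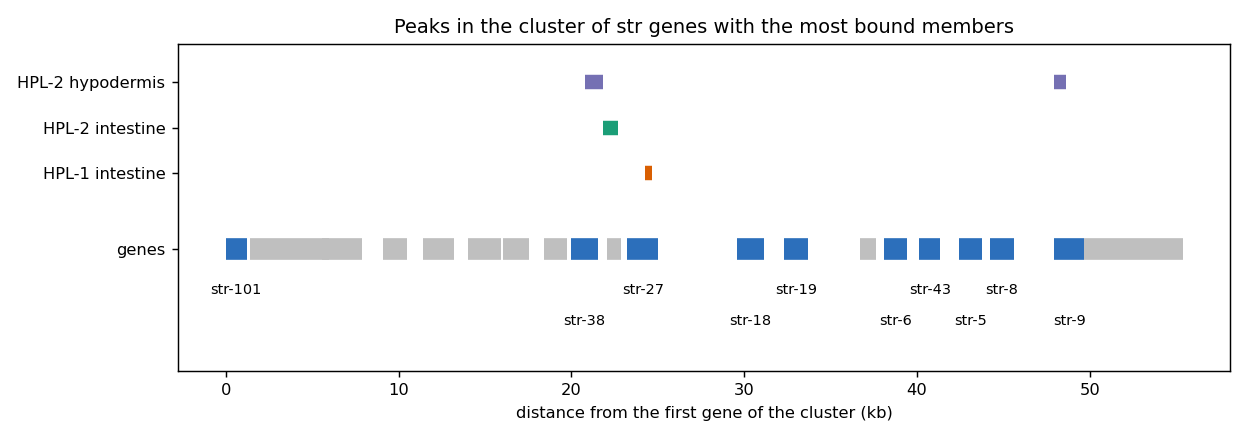
The 10 str genes from str-101 to str-9 on chromosome V (blue, named) with other protein-coding genes (grey), drawn to scale as distance from the first gene (horizontal axis, kb). Bars above show the peaks of each list; 3 lie around str-38 and str-27 and 1 over str-9, and the 7 other str genes carry none.

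The median unbound receptor gene was farther from a peak than the median unbound gene in each list, while the distances overlapped widely and were not tested. The median distance to the nearest peak was 36.02 kb for the 289 genes not bound by HPL-1, beside 32.2 kb for all protein-coding genes without an HPL-1 peak. The quartiles of these HPL-1 distances were 15.45 and 81.6 kb for the receptor genes and 12.5 and 69.4 kb for all. It was 50.2 kb beside 36.98 kb for HPL-2 in the intestine and 53.9 kb beside 42.03 kb in the hypodermis. On chromosome V the medians were 31.5 and 27.1 kb, 53.5 and 40.2 kb, and 44.1 and 36.6 kb in the same order. Within 10 kb of a peak were 18.0%, 12.2% and 15.03% of the unbound receptor genes, beside 20.8%, 20.2% and 18.99% of all unbound genes. Within 1 kb were 6, 4 and 8 unbound receptor genes. These are 2.08%, 1.35% and 2.80%, beside 2.199%, 2.34% and 2.32% of all unbound genes. With so few genes no difference from these shares is shown at this distance.

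**Figure D5:**
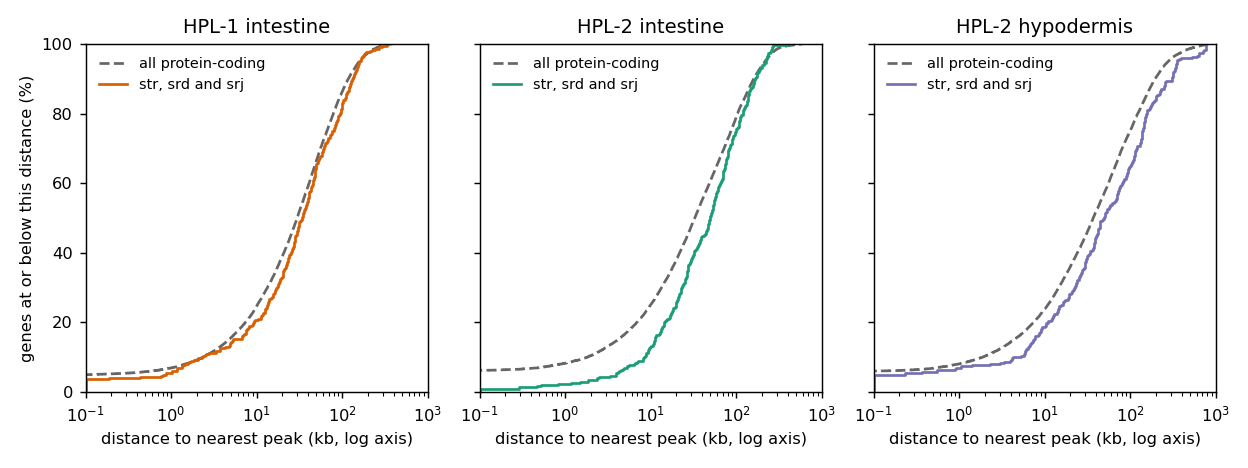
Cumulative share of genes (vertical axis, percent) by distance from the gene body to the nearest peak (horizontal axis, kb, log scale, distances under 0.1 kb drawn at 0.1) in each list. Solid lines are the 299 receptor genes and dashed lines all protein-coding genes; the solid line of HPL-2 intestine lies below the dashed one at 1 and 10 kb.

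Beyond the 23 bound genes, 13 lay within 1 kb of a peak of any list. The same count was not made for all protein-coding genes. The shares just given are for each list alone and include receptor genes bound in another list. The nearest was str-63, 48 bp from a peak that had the same ends in the HPL-1 intestine (score 0.82, FDR 6.54e-05) and HPL-2 hypodermis lists (score 1.43, FDR 0.000579). The HPL-1 peaks nearest to receptor genes otherwise lay by str-12 (189 bp), str-200 (765 bp), str-71 (809 bp) and srj-54 (875 bp, the peak over srj-55). Hypodermis peaks lay by str-121 (63 bp), srd-1 (231 bp), srd-35 (371 bp), str-196 (549 bp), str-52 (558 bp), str-245 (902 bp) and str-125 (928 bp), and an HPL-2 intestine peak by str-67 (832 bp). The gene srd-1 encodes a receptor by which males sense a volatile sex pheromone. Its nearest hypodermis peak scored 1.38 (FDR 0.0236), and the nearest HPL-1 and HPL-2 intestine peaks were 26.9 and 164.8 kb away.

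Other members with a known neuron or function lay at varied distances from peaks. The AWB neuron gene str-1 was 17.6, 27.1 and 27.5 kb from the nearest peak of HPL-1, intestinal HPL-2 and hypodermal HPL-2. Its neighbour str-44, which is expressed in AWA neurons of starved animals, was at 21.03, 30.5 and 30.9 kb. Both were nearer to peaks than the median unbound gene in each list. The ASI neuron gene str-3 was at 294.2, 63.04 and 58.6 kb. The gene str-2, which marks 1 of the 2 AWC neurons, was at 90.2, 133.6 and 201.7 kb.

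A few genes of chemosensory signalling lay under peaks. Of 35 signalling genes, among them the diacetyl receptor gene odr-10, the G protein genes gpa-1 to gpa-17 and the channel genes tax-2 and tax-4, 1 was bound by HPL-1, 2 by HPL-2 in the intestine and 3 by HPL-2 in the hypodermis. These are 2.86%, 5.71% and 8.57% of the list, beside 4.84%, 6.11% and 5.92% of all protein-coding genes, and each of the latter lies within the exact interval of the list. The bound genes were egl-4, which encodes a cGMP-dependent protein kinase and lay under a different peak in each list (scores 0.62, 0.68 and 1.4), gcy-28, a receptor guanylyl cyclase gene (HPL-2 intestine, 1.06), osm-9, a TRPV channel gene (hypodermis, 1.73), and rgs-3, a regulator of G protein signalling (hypodermis, 1.39). The receptor gene odr-10 was bound in no list. Peaks covered 0.375%, 0.695% and 1.26% of the sequence of these 35 genes in the HPL-1, HPL-2 intestine and hypodermis lists, beside 0.994%, 1.69% and 1.89% of all protein-coding gene sequence.

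Of 21 genes that regulate chemoreceptor expression or the identity of olfactory neurons, 2 were bound by HPL-1 (9.52%, beside 4.84% of all protein-coding genes), 6 by HPL-2 in the intestine (28.6%, 11.3% to 52.2%, beside 6.11%) and 2 by HPL-2 in the hypodermis (9.52%, beside 5.92%). Under HPL-2 intestine peaks were tir-1, an adaptor gene of the pathway that makes the AWC neurons differ (2.62), kin-29, a kinase gene needed for normal expression of str-1 and odr-10 (1.48), the homeobox gene hmbx-1 (1.19), the innexin gene inx-19 (1.14), the transcription factor gene sox-2 (0.98) and the calcium channel gene unc-2 (0.77). The hypodermis peaks lay over tir-1 (3.06) and hmbx-1 (2.01), and the HPL-1 peaks over nsy-7 (0.52), a transcription factor gene of the AWC pathway, and hmbx-1 (0.51). The list was drawn up with tir-1 already known to lie under HPL-2 peaks, so both HPL-2 shares rest partly on these same data. Several of these genes are long, with 52607 bp for unc-2 and 32053 bp for tir-1. Counted by sequence, HPL-2 intestine peaks covered 1.72% of the 21 genes, close to the 1.69% of all protein-coding genes, HPL-1 peaks 0.292% beside 0.994%, and hypodermis peaks 0.378% beside 1.89%.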

How the data were processed

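DamID-seq profiles came from 10 libraries in 5 groups of 2, grouped by their titles. Per the labels' protocols, each library was made from 200 ng of genomic DNA. The deposited files are 3 peak lists with a score for each peak, whose scale the authors' files do not state, and the authors' FDR. The file names give an average profile relative to Dam and an FDR threshold of 0.05, and no source used here names the peak caller. The submitters' processing notes list R 3.4.3, SAMtools 1.9, Bowtie2 2.3.4 and the WBcel235/ce11 build.

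Peaks were intersected with the RefSeq gene table of WBcel235 in Python 3.11.15 with pandas 2.3.3, NumPy 2.4.6 and SciPy 1.17.1; the overlap code was tested on simulated peaks. The table has no strand, exons or sequences, so the planned sequence features were not analysed. Chromosome extents were the furthest gene or peak end. Named genes are every bound gene, those within 1 kb of a peak and 6 with a known neuron or function. Gene families, lists and settings were chosen with earlier results of these data known. No test was run, since each group is 1 averaged list. Alternatives covered the FDR limit, the overlap rule, flanks, peak number and width, pseudogenes and cluster gaps.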

Additional observations from a re-analysis of the deposited data

How the results depend on the processing

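Counts of bound receptor genes rest on the peak threshold. With peaks of an FDR of 0.01 or below, HPL-1 intestine held 4, HPL-2 intestine 0 and HPL-2 hypodermis 7 of 299, with 10 in any list and 0 in both HPL-2 lists, and peaks covered 0.459%, 0% and 0.886% of their sequence. These counts are 1.34%, 0% and 2.34% of receptor genes, beside 2.75%, 4.29% and 3.785% of all protein-coding genes at the same limit. With the gene midpoint required inside a peak, HPL-1 held 5, the hypodermis 4, any list 9 and both HPL-2 lists 1. The hypodermis count is 1.34% of receptor genes, beside 2.11% of all genes. The HPL-1 share of receptor genes, 1.67%, was then above the 1.24% of all genes, where it was below in the main count. With 1 kb added on either side the counts were 16, 7 and 21, with 36 in any list, 3 in HPL-2 hypodermis and HPL-1 intestine and 4 in both HPL-2 lists. The counts for each list are 5.35%, 2.34% and 7.02% of receptor genes, beside 6.93%, 8.31% and 8.10% of all genes. With the lists cut to 1346 peaks each, HPL-2 intestine held 1, both HPL-2 lists held 0, and HPL-2 intestine covered 0.139% of the sequence. At that size 0.334% of receptor genes and 5.11% of all genes were bound by HPL-2 in the intestine. The share of receptor genes bound by HPL-2 was below that of all genes in each of these settings, with peaks of 500 bp and with an overlap of 100 bp, in both tissues. No receptor gene shared its peak with another, so counting such genes once changed no count. With cluster gaps of 10 and 50 kb, clusters with a bound gene numbered 6 and 8 (6 at 20 kb). The shares of cluster sequence under peaks at 10 kb (0.412%, 0.418%, 0.515%) and 50 kb (0.779%, 0.564%, 1.11%), like the shares on chromosome V and in the arms, were chosen after seeing the data.

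No paired analysis was possible because the authors averaged the libraries before they called peaks, and for the same reason no library could be left out. With 10, 3 and 13 bound genes, differences between families or lists of a few genes are within counting error.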

Other observations

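The families also have 47 pseudogenes (33 str, 8 srd and 6 srj), of which 1, 0 and 2 lay under peaks of HPL-1, intestinal HPL-2 and hypodermal HPL-2. Of all 1921 pseudogenes 6.30%, 4.01% and 6.72% did. The srj pseudogene srj-12 (V, 529277 to 530557) lay under a hypodermis peak with a score of 2.09 (rank 273 of 1572, FDR 0.000936), whereas 0 of the 39 protein-coding srj genes did. The pseudogene str-21 (II, 1791981 to 1792962) lay under a hypodermis peak scoring 1.42 (FDR 0.000579). The pseudogene srd-24 (V, 16632737 to 16634085) lay under an HPL-1 peak scoring 0.94 (rank 166 of 1346, FDR 0.00227). It stands next to srd-21, whose peak is in the hypodermis list, and that HPL-1 peak begins 1.18 kb from srd-21.

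Among the other chemoreceptor families, srbc with 70 genes, srab with 23 and srb with 12 had 0 genes under peaks of any list, whereas sri, with 61 genes, had 4, 4 and 8 in the same order. These counts were picked out after the values had been seen.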
